A study of Mus musculus with 6 samples.

Results

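The genes described here encode the chains of MHC-I, the class I molecules of the mouse histocompatibility complex: B2m, the classical heavy chain genes H2-K1 and H2-D1, and the nonclassical heavy chain genes H2-T22, H2-T23, H2-T24, H2-M3, H2-Q4, H2-Q6 and H2-Q7. These 10 genes were taken by name from the 54446 genes of the deposited table, and 8 of them had at least 10 counts in at least 2 libraries and were tested. The cells were TRAMP-C2, an established mouse prostate cancer line recorded as male and C57BL/6, and they were left without a drug (control), given oxaliplatin (Oxali) at 2 µM or given cisplatin (Cispl) at 2 µM, each for 24 h. Polyadenylated RNA of each group was sequenced in 2 libraries, with 21345312 to 24041767 counts per library, to ask whether these platinum drugs change the genes of MHC-I antigen processing and presentation. All 6 libraries came from cultures of the 1 line, and the labels name no genetic change in any group. The labels do not say whether 2 libraries of a group came from separate cultures, so the p values below measure the spread between these libraries, which may be technical.

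An MHC-I molecule consists of a heavy chain, which forms the peptide groove, and β2-microglobulin, the invariant light chain encoded by B2m. Peptides made largely by the proteasome are carried into the endoplasmic reticulum by the TAP transporter and loaded there with the help of tapasin, calreticulin and ERp57, and the filled molecule travels to the cell surface, where CD8+ T cells read classical molecules. Nonclassical molecules are less polymorphic and have narrower ligands: H2-T23 encodes the heavy chain of Qa-1, read by NK cell receptors, H2-T22 binds a group of γδ T cell receptors, H2-M3 presents formylated peptides and H2-Q7 encodes a Qa-2 chain. Tumour cells often carry little MHC-I, and the genes can then be raised by interferons and NF-κB.

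The label of the cells was compared with marker genes first. Pbsn, which encodes the prostate secretory protein probasin, was at 0 counts in all libraries. Epcam had at most 2 counts, Krt8 93 to 133 (expected counts, rounded), Krt18 112 to 173 and Cdh1, encoding E-cadherin, 356 to 416 in control and Oxali and 560 to 562 in Cispl libraries, while the mesenchymal genes Vim and Col1a1 reached at least 53688 and 97399 counts. The 7 immune markers summed to 8 to 10 counts in control, 3 to 8 in Oxali and 13 to 20 in Cispl libraries, most of them from Cd74, with Adgre1 at 0 throughout and Ptprc, which marks all leukocytes, at no more than 1 count. The 2 endothelial markers summed to 2 to 9 counts. In bulk RNA, fewer cells of a type and less RNA per cell cannot be told apart.

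The heavy chain genes lie in the MHC on chromosome 17, and several of them share sequence just before their start sites. RefSeq gave 250 bases before the start for 9 of the 10 genes (GRCm38.p6). The window of H2-K1 (chr17:34000348-34000597, minus strand) is printed 5′ to 3′ because it holds all 3 motifs searched: in order, GGGATTCCC (a κB element, bound by NF-κB), TTTCNNTT (the core of an interferon-stimulated response element, ISRE) and TGACGC (site α, bound by factors of the CREB and ATF family), each in capitals.
H2-K1 window: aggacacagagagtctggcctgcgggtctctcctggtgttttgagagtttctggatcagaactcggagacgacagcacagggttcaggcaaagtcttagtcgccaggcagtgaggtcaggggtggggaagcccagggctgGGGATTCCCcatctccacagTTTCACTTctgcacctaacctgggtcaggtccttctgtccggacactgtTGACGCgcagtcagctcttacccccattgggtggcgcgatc
The 28 bases that run from the κB position to the end of the ISRE core are shown for the heavy chain genes that hold TTTCACTT, so that the pair of elements can be compared, with exact matches in capitals.
H2-K1: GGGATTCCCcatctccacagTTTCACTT
H2-D1: GGGATTCCCcatctcctcagTTTCACTT
H2-Q6: GGGATTCCCcatctccccagTTTCACTT
H2-Q7: gGGGATTCCCatctccccagTTTCACTT
H2-Q4: gggatttcccatctccccagTTTCACTT
H2-M3: ttcccccatttcctctgaggTTTCACTT
H2-T22: agagtccctaattggcttagTTTCACTT
B2m, on chromosome 2, holds the ISRE letters on the opposite strand, and its 28 bases from that match are shown with the match in capitals.
B2m: AACTGAAAatgggaaagtccctttgtaa
The stretches lie at chr17:34000430-34000457 (H2-K1, minus strand), chr17:35262924-35262951 (H2-D1, plus), chr17:35424678-35424705 (H2-Q6, plus), chr17:35439022-35439049 (H2-Q7, plus), chr17:35379444-35379471 (H2-Q4, plus), chr17:37270113-37270140 (H2-M3, plus), chr17:36042926-36042953 (H2-T22, minus) and chr2:122147550-122147577 (B2m, plus).

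Of these 28 bases, H2-K1 and H2-D1 shared 27, and H2-Q6 shared 27 with each of them, while H2-M3 shared 13 and H2-T22 shared 17 with H2-K1. The κB letters were found before 4 genes (H2-K1, H2-D1, H2-Q6 and H2-Q7) and in 0.301% of all 32851 promoter windows of the same length. The site α letters were found before 3 genes (H2-K1, H2-D1 and H2-M3) and in 6.12% of windows, and the ISRE letters before all 9 genes with a window and in 21.3% of windows. Both strands were searched, the matches did not overlap each other, and the first base of the κB match lay 110 bases before the start of H2-K1, counted from its outermost RefSeq start, and 170 bases before that of H2-D1, where GENCODE places an H2-D1 exon. The matches describe only the letters searched for in these windows. Variants of the κB element were not searched, so a gene without a match may still hold one. Binding was not measured in these libraries.

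After Cispl, B2m and 3 heavy chain genes rose: H2-D1, H2-K1 and H2-T22. After Oxali, none of the 8 genes tested passed the threshold of a DESeq2 adjusted p of 0.05. In the direct comparison of the drugs, B2m, H2-D1 and H2-K1 were higher with Cispl and H2-T24 was higher with Oxali. With Cispl, 4 of 8 were called, all of them higher, where 28.1% of all genes tested were called and 15.7% were called higher. With Oxali 0 of 8 were called where 20.2% of all genes were called, and edgeR called 1 (B2m). By DESeq2, 1 of the 8 (B2m) had an unadjusted p under 0.05, where 4221 of all 14956 genes tested did. Both drug contrasts use the same control libraries.

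**Figure D1:**
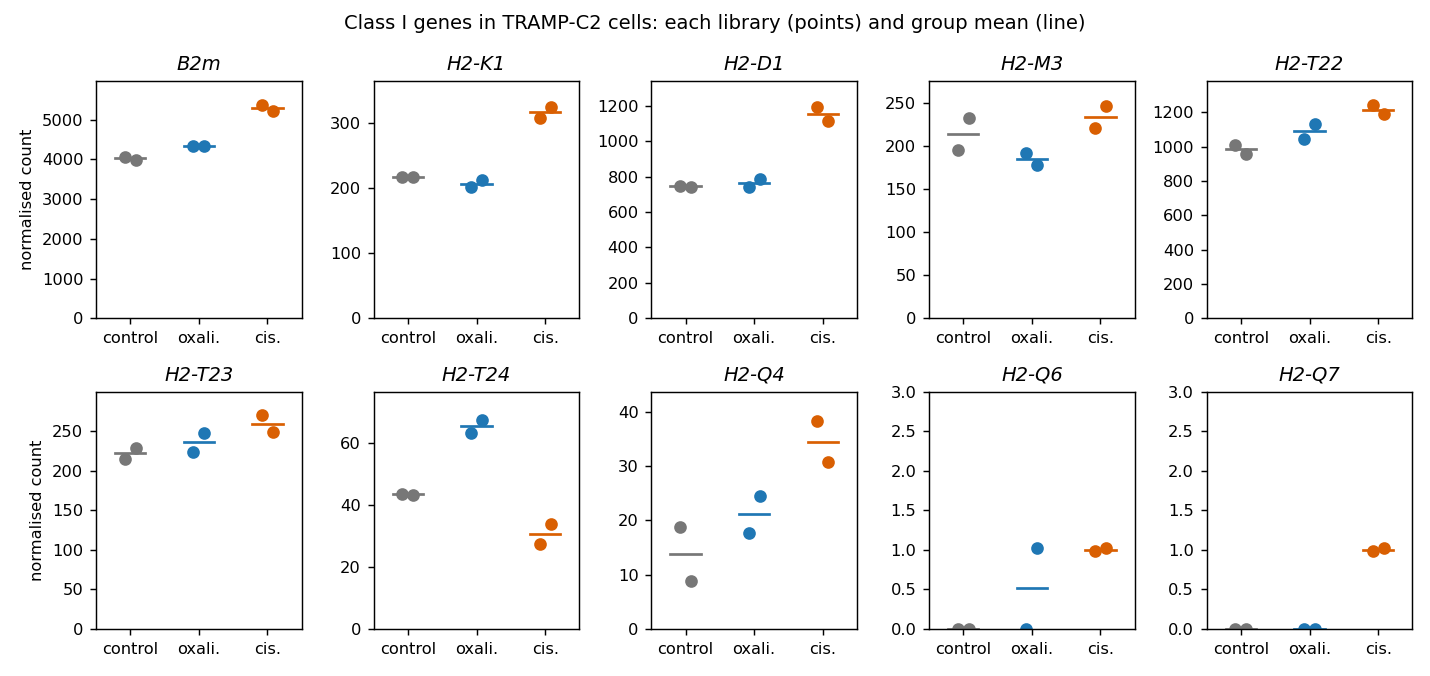
Normalised counts (vertical axes, each from 0) of the 10 class I genes in the 2 libraries of each group (points), with the group mean as a line. B2m, H2-K1 and H2-D1 sit highest in both Cispl libraries, H2-T24 sits highest in both Oxali libraries, and H2-Q6 and H2-Q7 have about 1 count or 0.

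B2m (ENSMUSG00000060802, GRCm38 chr2:122147686-122153083, plus strand) encodes the light chain with which class I heavy chains pair. It had 4058 and 3999 normalised counts in control, 4348 and 4328 in Oxali and 5365 and 5221 in Cispl libraries, that is, counts divided by each library's size factor. The 3 groups did not overlap, with control lowest and Cispl highest. The Cispl to control log2 fold change was 0.39 ± 0.05 (SE), with a 95% interval from 0.30 to 0.49 (1.31-fold; adjusted p = 1.72e-15). For Oxali it was 0.11 ± 0.05, with an interval from 0.01 to 0.20, and missed the threshold by DESeq2 (adjusted p = 0.0817) but passed it by edgeR's quasi-likelihood test (adjusted p = 0.0375), the one alternative of 14 in which it did. Patl2, which the annotation places on the opposite strand over all of B2m, had 0 counts in every library.

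H2-D1 (ENSMUSG00000073411, chr17:35262730-35267499, plus strand) encodes the classical Db heavy chain of this strain. Its libraries held 749 and 742 normalised counts in control, 744 and 786 in Oxali, and 1195 and 1115 in Cispl. Both Cispl libraries lay above all others, while Oxali overlapped control. The Cispl change was 0.63 ± 0.10 on the log2 scale, interval 0.44 to 0.82 (1.55-fold; DESeq2 adjusted p = 1.38e-09), and it stayed past the threshold in all 14 alternative analyses. The Oxali change was 0.04 ± 0.10, interval -0.16 to 0.23 (DESeq2 adjusted p = 0.851), and became -0.005 when Oxali replicate 2 was left out.

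H2-K1 (ENSMUSG00000061232, chr17:33996017-34000347, minus strand) encodes the classical Kb heavy chain, which presents the ovalbumin peptide often used in T cell assays. It was measured at 218 and 217 normalised counts in control, 202 and 212 in Oxali, and 308 and 325 in Cispl. The Cispl libraries were again the highest. The change with Cispl was 0.54 ± 0.17 on the log2 scale (interval 0.21 to 0.88, 1.46-fold, DESeq2 adjusted p = 0.00693) and that with Oxali was -0.07 ± 0.18 (interval -0.42 to 0.27, DESeq2 adjusted p = 0.826). The Cispl call was lost without control replicate 1 (DESeq2 adjusted p = 0.0985), control replicate 2 (0.115), Cispl replicate 1 (0.114) or Cispl replicate 2 (0.202), and with the replicate number as a block (0.0620), while the fold change stayed between 0.49 and 0.58 in all 14 alternatives.

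H2-T22 (ENSMUSG00000056116, chr17:36037128-36042747, minus strand) was the nonclassical gene with the most counts. Its normalised counts were 1012 and 958.6 in control, 1046 and 1133 in Oxali, and 1242 and 1188 in Cispl. Control libraries were lowest and Cispl libraries highest, with no overlap. The Cispl change was 0.30 ± 0.09 (log2; interval 0.13 to 0.48, 1.23-fold, DESeq2 adjusted p = 0.00426), and the call was lost without control replicate 2 (0.131), Cispl replicate 1 (0.159) or Cispl replicate 2 (0.0677). Oxali gave 0.14 ± 0.09, with an interval from -0.03 to 0.32 (DESeq2 adjusted p = 0.263).

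H2-T23 (ENSMUSG00000067212, chr17:36029773-36032855, minus strand), which encodes the Qa-1 heavy chain, had 215 and 229 normalised counts in control, 224 and 248 in Oxali, and 270 and 249 in Cispl. The lower Cispl library lay within 1 normalised count of the higher Oxali library. The log2 fold changes were 0.23 ± 0.18 with Cispl (interval -0.13 to 0.58, DESeq2 adjusted p = 0.369) and 0.09 ± 0.18 with Oxali (interval -0.27 to 0.44, DESeq2 adjusted p = 0.793).

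H2-M3 (ENSMUSG00000016206, chr17:37270220-37274484, plus strand) presents N-formylated peptides of bacteria and mitochondria. It had 195 and 232.5 normalised counts in control, 191 and 178 in Oxali and 221 and 247 in Cispl. Its 2 control libraries spanned a wider range than either drug group, and Cispl overlapped them. The log2 fold changes were 0.13 ± 0.20 with Cispl (interval -0.26 to 0.51, DESeq2 adjusted p = 0.684) and -0.21 ± 0.20 with Oxali (interval -0.60 to 0.18, DESeq2 adjusted p = 0.4998).

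H2-T24 (ENSMUSG00000053835, chr17:36005695-36020560, minus strand) was ordered the other way. It had 43.6 and 43.4 normalised counts in control, 63.1 and 67.5 in Oxali, and 27.5 and 33.8 in Cispl. Oxali libraries were highest and Cispl libraries lowest, with no overlap. Against control neither drug passed the threshold: the log2 fold change was 0.59 ± 0.39 with Oxali (interval -0.17 to 1.35, DESeq2 adjusted p = 0.292) and -0.51 ± 0.41 with Cispl (interval -1.31 to 0.30, DESeq2 adjusted p = 0.379). An antisense gene, A930015D03Rik, covers H2-T24 and H2-T23 and part of H2-T22, and had 19.0 expected counts in control replicate 2 and at most 0.05 in every other library. Its part in these values was not tested.

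H2-Q4 (ENSMUSG00000035929, chr17:35379617-35385290, plus strand) is a gene of the Qa region, whose best known products are the Qa-2 molecules. It had 18.7 and 8.87 normalised counts in control, 17.6 and 24.6 in Oxali, and 38.2 and 30.7 in Cispl. Cispl libraries were highest, and Oxali overlapped control. The Cispl to control log2 fold change of 1.33 ± 0.62 (interval 0.12 to 2.54) missed the threshold by DESeq2 (adjusted p = 0.0854) and passed it by edgeR (adjusted p = 0.0246), and the Oxali change of 0.62 ± 0.63 received no DESeq2 adjusted p under independent filtering. Both values rest on the control libraries: without control replicate 1 they were 1.959 and 1.25, and without control replicate 2 they were 0.88 and 0.18, with no DESeq2 adjusted p in any of these fits. The Oxali value was 0.36 without Oxali replicate 2.

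The Qa-2 genes H2-Q6 (ENSMUSG00000073409, chr17:35424850-35430055) and H2-Q7 (ENSMUSG00000060550, chr17:35439155-35443773) were barely detected and were not tested. H2-Q6 had 0 expected counts in both control libraries, 0 and 1.25 in Oxali, and 1.20 and 0.91 in Cispl. H2-Q7 had 0 in control and Oxali libraries and 1.05 and 1.32 in Cispl. A count of 0 allows up to 3 counts, or 0.125 to 0.141 CPM (a gene's counts relative to all counts of its library) at these depths, counting error only, so no value of either gene exceeds that limit and no fold is given.

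**Figure D2:**
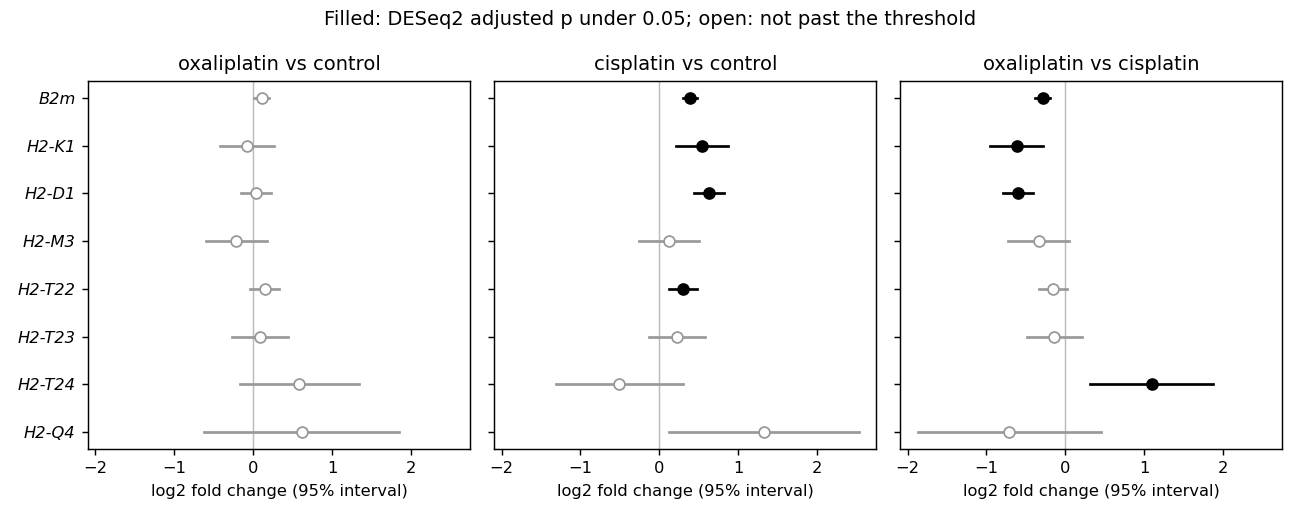
Log2 fold changes (points) with 95% intervals (lines) of the 8 tested genes in the 3 comparisons. Filled points passed a DESeq2 adjusted p of 0.05: none in the first panel, B2m, H2-K1, H2-D1 and H2-T22 in the second, and B2m, H2-K1, H2-D1 (below 0) and H2-T24 (above 0) in the third.

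Oxaliplatin and cisplatin are both platinum(II) complexes that crosslink DNA. They differ in the ligands on platinum, a diaminocyclohexane and an oxalate in oxaliplatin and ammines and chlorides in cisplatin. Both were given at the same dose for the same time, so their libraries were compared directly as 1 pair of compounds. B2m, H2-D1 and H2-K1 were lower with Oxali than with Cispl, by log2 fold changes of -0.29 ± 0.05 (interval -0.38 to -0.20, DESeq2 adjusted p = 1.81e-08), -0.60 ± 0.10 (interval -0.78 to -0.41, adjusted p = 1.72e-08) and -0.62 ± 0.17 (interval -0.95 to -0.28, adjusted p = 0.00238). The H2-K1 call was lost without Oxali replicate 1 (DESeq2 adjusted p = 0.160), Oxali replicate 2 (0.0884), Cispl replicate 1 (0.0899) or Cispl replicate 2 (0.153). Of the 8 genes 4 were called, 3 of them higher with Cispl, where 19.9% of all genes tested were called and 11.3% were called higher with Cispl.

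H2-T24 was the member higher with Oxali than with Cispl. The difference was 1.09 ± 0.40 on the log2 scale (interval 0.31 to 1.88, 2.14-fold, DESeq2 adjusted p = 0.0284). It passed in all 7 alternatives that gave it an adjusted p (0.00469 to 0.0497), but in the other 7, the replicate block and each fit without 1 library, independent filtering gave none, with log2 fold changes of 0.95 to 1.25 and unadjusted p from 0.0202 to 0.108. The unadjusted p was 0.0708 without Oxali replicate 1, 0.0999 without Oxali replicate 2 and 0.108 without Cispl replicate 1.

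No difference between the drugs was called for H2-T22 (-0.16 ± 0.09, interval -0.33 to 0.02, DESeq2 adjusted p = 0.202), H2-T23 (-0.14 ± 0.18, interval -0.49 to 0.21, adjusted p = 0.637) or H2-M3 (-0.34 ± 0.20, interval -0.73 to 0.05, adjusted p = 0.217; 0.0490 by edgeR). For H2-Q4 the difference of -0.71 ± 0.59 (interval -1.87 to 0.45) had no DESeq2 adjusted p. The intervals of these 4 genes include 0 and also include the difference of -0.29 called for B2m. The 2 libraries of one group did not overlap those of the other for 5 of 8 genes in Oxali against control, 7 of 8 in Cispl against control and 8 of 8 between the drugs, where 64.8%, 69.4% and 68.0% of all genes tested did not overlap. Such separation was thus the usual outcome over all genes in these libraries. The median log2 fold change over the 8 genes was 0.10 with Oxali and 0.35 with Cispl against control, and -0.31 between the drugs, where the median of all genes tested was between -0.0033 and -0.0008.

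Levels of different genes were compared per length, as CPM per kilobase of the union of a gene's exons. B2m stood far above the heavy chains, at a mean of 212 in control, 226 in Oxali and 269 in Cispl. In control, H2-D1 (13.1) and H2-T22 (13.05) were followed by H2-M3 (6.72), H2-T23 (3.47), H2-K1 (3.34), H2-T24 (0.905) and H2-Q4 (0.234). H2-D1 and H2-T22 overlapped in their control libraries and could not be ordered. The control libraries of H2-T23 (3.36 and 3.59) lay just above those of H2-K1 (3.34 and 3.34). In Cispl the order began with H2-D1 (19.6), H2-T22 (15.6) and H2-M3 (7.10), and H2-K1 (4.71) stood above H2-T23 (3.93). The order depends on the length used. Per kilobase of the longest protein-coding transcript, H2-T22 (25.3) stood above H2-D1 (16.0) in control, and H2-T23 (6.82), H2-M3 (6.72) and H2-K1 (6.06) came close together.

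Summed over the 9 heavy chain genes, the level per kilobase was 40.5 and 41.0 in control, 40.8 and 42.95 in Oxali, and 52.9 and 51.4 in Cispl libraries. H2-D1 made up 32.3% and 31.8% of that sum in control, 31.7% and 31.8% in Oxali, and 38.4% and 36.8% in Cispl. The share of H2-T22 was 33.0% and 31.0% in control, 33.7% and 34.6% in Oxali, and 30.2% and 29.6% in Cispl. H2-D1 thus held a larger share, and H2-T22 a smaller one, in both Cispl libraries than in any other. H2-T24 held 2.25% and 2.19% in control, 3.20% and 3.22% in Oxali and 1.06% and 1.33% in Cispl. The ratio of B2m to the heavy chain sum was 5.26 and 5.13 in control, 5.56 and 5.25 in Oxali and 5.17 and 5.16 in Cispl, so all 6 libraries lay between 5.13 and 5.56 while both terms of the ratio were higher in Cispl. These shares and ratios depend on the length used. Per kilobase of the longest protein-coding transcript, H2-T22 held 41.7% and 39.65% in control, and H2-D1 held 25.9% and 25.7%. The ratio of B2m to the heavy chain sum then lay between 3.39 and 3.62 in all 6 libraries. The shares and ratios are descriptions and were not tested.

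**Figure D3:**
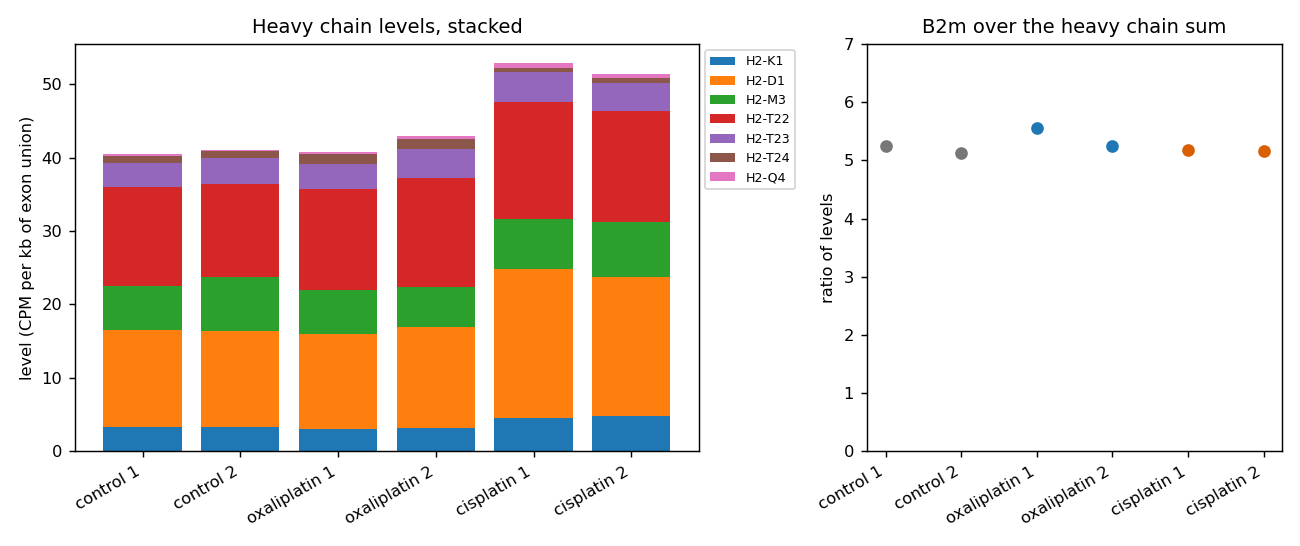
Left, level per kilobase of exon union (CPM per kb) of 7 heavy chain genes, stacked for each library (H2-Q6 and H2-Q7 are too low to draw). Right, the ratio of the B2m level to the sum over heavy chains in each library. The stacks reach 52.9 and 51.4 in the Cispl libraries against 40.5 to 42.95 in the others, and the ratio stays between 5.13 and 5.56.

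Because the heavy chain genes are similar, reads can fit more than one of them, and the deposited expected counts divide such reads by estimate. Of the 100-base windows of the longest coding transcript, 14.2% in H2-T22, 7.28% in H2-T23, 4.64% in H2-D1 and 2.66% in H2-Q4 occurred identically in a transcript of another gene, 10.8% in H2-Q6 and 16.4% in H2-Q7, and 0 in B2m, H2-K1, H2-M3 and H2-T24. With windows of 50 bases the shares were 44.7% for H2-T22, 28.8% for H2-T23, 14.3% for H2-D1 and 8.79% for H2-K1, and still 0 for B2m. The B2m counts were whole numbers in all 6 libraries, while those of H2-K1, H2-D1, H2-T22, H2-T23, H2-T24 and H2-Q4 were not whole in any (tolerance 0.005). How uncertain the levels of heavy chain genes are was not measured, and the shares of windows do not give it. H2-K1 and H2-T24 had 0 shared windows of 100 bases, yet their counts were not whole.

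Sums do not depend on how reads were divided within them. H2-K1 with H2-D1 summed to 966 and 958 normalised counts in control, 945 and 998 in Oxali and 1502 and 1441 in Cispl, which is a log2 ratio of means of 0.61 for Cispl and 0.01 for Oxali. The 3 H2-T genes summed to 1271 and 1231, 1334 and 1448, and 1539 and 1471 (ratios 0.27 for Cispl and 0.15 for Oxali), and the 3 H2-Q genes to 18.2 and 8.70, 17.9 and 25.8, and 40.1 and 32.6. All 9 heavy chains together gave a mean of 2440 in control, 2569 in Oxali and 3246 in Cispl (0.07 for Oxali and 0.41 for Cispl). A further 22 genes were taken by symbol prefixes of class I heavy chain genes, some of them named as pseudogenes. Genes with Gm symbols that share windows with members, such as Gm7030 and Gm11127, were not among them. Of the 22, only H2-T10, the closest relative of H2-T22 by shared windows, had enough counts to be tested. Its expected counts were 3.13 and 8.30 in control, 13.5 and 11.4 in Oxali and 8.84 and 19.9 in Cispl. H2-T10 received no DESeq2 adjusted p in any of the 3 comparisons.

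The rest of the class I pathway was described with lists of 7 genes of peptide supply, 7 of peptide transport and loading, 13 transcription factors of class I promoters and 8 class I-like genes. Over the genes tested, the median log2 fold change of these lists was 0.18, -0.24, 0.05 and -0.44 with Oxali and 0.13, -0.03, 0.01 and 0.00 with Cispl, in that order. Between the drugs, DESeq2 called 2 of 7, 4 of 7, 1 of 12 and 4 of 7 tested genes of the lists lower with Oxali, where 11.3% of all genes were, and 1, a transcription factor, higher. In peptide supply, DESeq2 called 2 of 7 genes higher with Cispl and none lower, where 28.1% of all genes were called in either direction, and edgeR called 3 higher. The share of all genes called by edgeR is not given here, so its counts cannot be set against such a share. Psmb10, an inducible subunit of the immunoproteasome, had 664 and 634 normalised counts in control, 768 and 779 in Oxali and 982 and 898 in Cispl (Cispl change 0.54 ± 0.10, DESeq2 adjusted p = 2.88e-06). Psme3, the proteasome activator PA28γ, had 2526 and 2551, 3026 and 2964, and 3224 and 3451 (0.39 ± 0.06 with Cispl, DESeq2 adjusted p = 9.92e-10). It also rose with Oxali (0.24 ± 0.06, DESeq2 adjusted p = 6.36e-04), a call lost without Oxali replicate 1 (0.0924), and was the 1 gene of 7 that DESeq2 called there, where 20.2% of all genes were called. The Oxali change of Psmb10 was 0.25 ± 0.10 (DESeq2 adjusted p = 0.0585) and passed the threshold by edgeR (0.0154) and with the filter of 10 counts in every library (0.0492), and edgeR called 3 genes of this list higher. The Cispl calls of both genes held in all 14 alternatives. Their calls between the drugs were weaker. Psmb10 (-0.28 ± 0.10, DESeq2 adjusted p = 0.0266) held in 6 of 14 alternatives, and Psme3 (-0.16 ± 0.06, DESeq2 adjusted p = 0.0364) in 5. The immunoproteasome subunit Psmb8 had 25.9 and 37.4 normalised counts in control, 49.2 and 39.9 in Oxali and 72.5 and 55.3 in Cispl, and its Cispl change of 1.01 ± 0.42 missed the threshold (DESeq2 adjusted p = 0.0539) but passed it by edgeR (0.0137) and with the filter of 10 counts in every library (0.0359). Psmb9, another inducible subunit of the immunoproteasome, was named after its values were seen and went the other way with Cispl. Its normalised counts were 13.5 and 15.8 in control, 10.21 and 15.35 in Oxali and 7.84 and 4.09 in Cispl. The Cispl change of -1.29 ± 0.85 received no DESeq2 adjusted p.

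In peptide transport and loading, Oxali lowered 3 of 7 genes and raised none, where 1421 of all 14956 genes tested were called lower. Cispl raised 1 and lowered 1, against 28.1% of all genes called. These counts were the same by DESeq2 and edgeR. The 3 that fell with Oxali serve folding and loading in the endoplasmic reticulum, and their names, apart from Pdia3, were chosen after their values were seen. Calr, encoding calreticulin, had 40612 and 39990 normalised counts in control, 30479 and 31144 in Oxali and 39401 and 39372 in Cispl (Oxali change -0.39 ± 0.03, DESeq2 adjusted p = 3.89e-39). Pdia3, encoding ERp57, changed by -0.28 ± 0.04 (DESeq2 adjusted p = 4.94e-13), and Canx, encoding calnexin, by -0.15 ± 0.03 (DESeq2 adjusted p = 4.01e-05), the last call being lost without Oxali replicate 1 (0.0576). Tapbp, encoding tapasin, rose with Cispl by 0.16 ± 0.06 (DESeq2 adjusted p = 0.0308) and Tap2, a subunit of the peptide transporter, fell by 0.61 ± 0.23 (DESeq2 adjusted p = 0.0281). These 2 calls held in 5 and 6 of 14 alternatives, and leaving out any 1 of the 6 libraries ended both (DESeq2 adjusted p from 0.0934 to 0.396 for Tapbp and from 0.104 to 0.284 for Tap2). Tap1, the other transporter subunit, had 115 and 106 normalised counts in control, 88.2 and 86.0 in Oxali and 98.0 and 92.1 in Cispl, and neither drug changed it past the threshold (Oxali -0.35 ± 0.27, Cispl -0.22 ± 0.27, DESeq2 adjusted p = 0.390 and 0.588).

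Among the transcription factors, 12 of 13 were tested. With Oxali DESeq2 called 0, and 2 had an unadjusted p under 0.05, where 4221 of all 14956 genes tested did. By edgeR, 3 were called higher: Irf1 (edgeR adjusted p = 0.0220), Irf2 (0.0290) and Nfkb1 (0.0155). With Cispl DESeq2 called 3 higher and 1 lower, a share near the 28.1% of all genes, and edgeR called 3 higher and 2 lower. For edgeR, the share of all genes called is not given with either drug. Rela, encoding the p65 subunit of NF-κB, had 2422 and 2239 normalised counts in control, 2522 and 2486 in Oxali, and 3032 and 3170 in Cispl (Cispl change 0.41 ± 0.06, DESeq2 adjusted p = 3.96e-09, held in all 14 alternatives). Irf1, an interferon-regulated activator, had 1157 and 1128, 1303 and 1271, and 1432 and 1397 (0.31 ± 0.08, DESeq2 adjusted p = 6.24e-04, lost without control replicate 2 at 0.0501 and without Cispl replicate 1 at 0.0771). Creb1, of the family that binds site α, fell by 0.31 ± 0.10 (DESeq2 adjusted p = 0.00947), a call lost without control replicate 2 (0.259), Cispl replicate 1 (0.101) or Cispl replicate 2 (0.169). The remaining one, Irf2, named after its value was seen, rose by 0.28 ± 0.11 (DESeq2 adjusted p = 0.0359), which held in 4 of 14 alternatives and in no fit without 1 library (DESeq2 adjusted p from 0.124 to 0.325). Nlrc5, the transactivator of class I genes, had only 3 and 6 counts in control, 6 and 11 in Oxali and 8 and 9 in Cispl, and was not tested. Between the drugs, Rela was lower and Nfkb1, chosen after its values were seen, was higher with Oxali (-0.31 ± 0.06 and 0.27 ± 0.07, DESeq2 adjusted p = 2.37e-05 and 8.84e-04). The Nfkb1 call was lost without Oxali replicate 1 (0.166) or Cispl replicate 1 (0.0890).

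**Figure D4:**
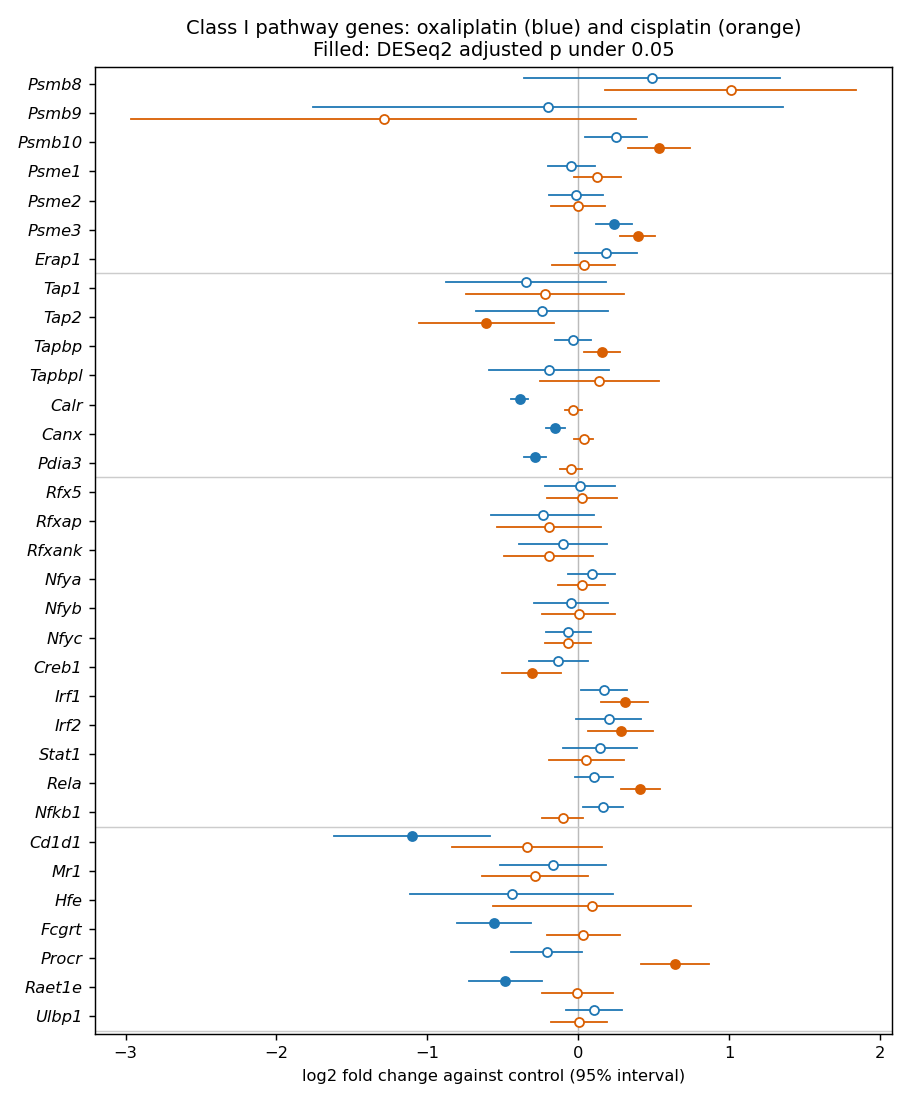
Log2 fold change against control (points, with 95% intervals) of the tested genes of peptide supply, transport and loading, transcription factors and class I-like genes, from top to bottom, for Oxali (blue) and Cispl (orange). Filled points passed a DESeq2 adjusted p of 0.05. For Oxali, Calr, Canx, Pdia3, Cd1d1, Fcgrt and Raet1e are filled below 0 and Psme3 is filled above 0. For Cispl, Psmb10, Psme3, Tapbp, Irf1, Irf2, Rela and Procr are filled above 0, and Tap2 and Creb1 are filled below 0.

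The class I-like genes resemble MHC-I heavy chains, and some of their products, those of Cd1d1, Mr1, Hfe and Fcgrt, also pair with β2-microglobulin. Of 8 listed, 7 were tested. By DESeq2, Oxali lowered 3 and raised none, where 1421 of all 14956 genes were called lower, and Cispl raised 1 and lowered none, where 28.1% of all genes were called. By edgeR, Oxali also lowered Procr (-0.21, adjusted p = 0.0426) and Cispl also lowered Mr1 (-0.29, adjusted p = 0.0421). Cd1d1, which presents lipids to NKT cells, had 165 and 157 normalised counts in control, 86.3 and 63.5 in Oxali and 128 and 126 in Cispl. The Oxali libraries were the lowest, and the change was -1.10 ± 0.26 (DESeq2 adjusted p = 3.08e-04). Without Oxali replicate 2 it was -0.90 and the call was lost. Without control replicate 1, control replicate 2 or Oxali replicate 1 it was -1.06, -1.13 and -1.34, with no DESeq2 adjusted p. Between the drugs Cd1d1 differed by -0.76 ± 0.27 (DESeq2 adjusted p = 0.0219). That call held in 6 of the 11 alternatives with an adjusted p. Procr, the endothelial protein C receptor, had 489 and 540 normalised counts in control, 442 and 449 in Oxali and 815 and 790 in Cispl. It rose with Cispl by 0.64 ± 0.12 (DESeq2 adjusted p = 4.81e-07) and differed between the drugs by -0.85 ± 0.12 (lower with Oxali, DESeq2 adjusted p = 1.90e-11), both in all 14 alternatives.

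The other 2 that fell with Oxali were named after their values were seen. Fcgrt, the heavy chain of the neonatal Fc receptor, had 566 and 527 normalised counts in control, 377 and 365 in Oxali and 568 and 551 in Cispl (Oxali change -0.56 ± 0.13, DESeq2 adjusted p = 1.12e-04, held in all 14 alternatives). Raet1e, a ligand of the NK receptor NKG2D, changed by -0.48 ± 0.12 (DESeq2 adjusted p = 7.97e-04), a call lost without control replicate 1 (0.0792), Oxali replicate 1 (0.0619) or Oxali replicate 2 (0.0534). Mr1, which presents vitamin B metabolites, changed by -0.29 ± 0.18 with Cispl and -0.17 ± 0.18 with Oxali and was not called by DESeq2 (adjusted p = 0.234 and 0.566).

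The genes most like B2m over the 6 libraries, by Pearson correlation of log2(normalised count + 1) among 10725 genes with a mean of at least 100 normalised counts, were Ppp1r8 (r = 0.9996), AU020206 (0.998), 1700047I17Rik2 (0.998), Kif20a (0.998) and Litaf (0.997). Those most like H2-D1 were Ube2b (0.998), Tpp2 (0.995), Csnk2b (0.995), Fxr2 (0.995) and Itpa (0.995). All of them were highest on average in Cispl. The 6 points fall into 3 groups, and 493 genes had r over 0.95 with B2m and 383 with H2-D1, so these names describe a pattern that many genes share, and other members were left out of the search.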

How the data were processed

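RNA from TRAMP-C2 cells was measured as polyadenylated transcripts with a stranded kit in 6 libraries, 2 per group. The authors deposited expected counts per gene, estimated counts that need not be whole and are not normalised. The submitters' processing notes name STAR 2.5.3a, RSEM 1.3.0 and GRCm38.p6. The study's methods name another counting program for its in vitro RNA-seq, and the annotation release and the use of strand for this table are not given in the sources used here. No column was left without a sample (0), and 54409 of 54446 identifiers matched GENCODE M21, which gave symbols, coordinates and lengths.

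Expected counts were rounded, and the 14956 genes that reached 10 counts in 2 or more libraries were kept. DESeq2 1.42.0 in R 4.3.3 fitted all 6 libraries by group with median-of-ratios size factors (0.964 to 1.08), and Wald tests (two-sided) were adjusted by Benjamini-Hochberg over all genes within each of 3 comparisons, with independent filtering at alpha 0.1 and a threshold of 0.05. Intervals are 95%. The fit was tested on simulated data with larger changes than most of those described here. The changed genes had higher counts than H2-T24 and H2-Q4. How well small changes or low counts are recovered was therefore not tested. The members and lists were chosen with earlier results of these data known. All 10 members were named. From each pathway list the text names 3 genes, those of lowest adjusted p for Cispl against control, and also Nlrc5, Tap1 and Irf1, and for B2m and H2-D1 the 5 genes of highest correlation. Genes named outside this rule are said to be so.

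Alternatives were edgeR 4.0.16 (quasi-likelihood, TMM), TMM or total-count scaling, a replicate block, no filter on low counts, a filter asking for 10 counts in all libraries, a fit without independent filtering, a fit of only the 4 libraries compared, leaving out each library, and another length. Depth was 21345312 to 24041767 counts per library, at which 3 counts are 0.125 to 0.141 CPM. No batch is given by the labels. Some marker genes are not reported here. RefSeq windows were read for GRCm38.p6. Identity between members was described by shared transcript windows and not by protein sequence, which was not used here.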

Additional observations from a re-analysis of the deposited data

How the results depend on the processing

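Over 14 alternatives, 268 of the members' fold changes kept their direction and their side of the threshold, 42 that were not called had no adjusted p, 12 kept only the direction and lost the call, 3 gained a call and 1 reversed (H2-D1 with Oxali, -0.005 to 0.0743 without 1 library, the lowest without Oxali replicate 2). The B2m and H2-D1 calls with Cispl, and between the drugs, were made in all 14. Members called with Oxali numbered 0, and 1 by edgeR (B2m). Leaving out 1 library gave 2 to 4 members called with Cispl (2 without control replicate 2, Cispl replicate 1 or Cispl replicate 2) and 2 to 3 between the drugs (2 without either library of Oxali or Cispl), where H2-T24 had no adjusted p. Genes of the other pathway lists called with Oxali numbered 7, and 13 by edgeR, whose share over all genes is not given here. Without 1 library they numbered 3 to 7 with Oxali, 4 to 6 with Cispl (9 with all libraries) and 6 to 9 between the drugs (12 with all libraries). Single fold changes were followed for the tested pathway genes named in the text, apart from Psmb9, and not for the rest of the lists. Of those followed, the uncalled changes that reversed included Canx with Cispl (-0.0123, total-count scaling) and Fcgrt with Cispl (-0.0142, total-count scaling, and -0.0164 to 0.0847 without 1 library). The others were Raet1e with Cispl (-0.0993 to 0.0822) and Mr1 between the drugs (-0.0037 to 0.2263). The cause was not tested.

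Replicate numbers were not shown to pair the libraries: deviations of same-numbered libraries correlated at 0.0715, -0.0477 and -0.191 over 10731 genes. With the replicate block 0, 3 and 3 of the 8 members tested were called (Oxali, Cispl, between the drugs), and 7, 6 and 8 other pathway genes. The share of all genes called under the block is not given here. The H2-K1 call with Cispl was the one lost under the block among members with an adjusted p. Depth limits H2-Q4, H2-Q6, H2-Q7 and H2-T24 among the members, whose counts are under 100.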
